A study of Mus musculus with 6 samples.

Results

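Circular RNAs (circRNAs) of Homer1 and the circRNA antisense to Cdr1, also called Cdr1as or ciRS-7, were examined in the striatum of mice that lack the RNA-binding protein HuD. Members were every probe whose host gene is given as Homer1 in the deposited tables of changed circRNAs or in the study's list of circRNAs bound by HuD, together with mmu_circRNA_001946, the circle annotated as antisense to Cdr1. This rule found 6 of the 14236 circRNA probes of the array, 5 for Homer1 and 1 for the circle antisense to Cdr1. Of the 5 Homer1 circRNAs, 4 were on the HuD-bound list and 1, mmu_circRNA_26704, was named only because it stood in the deposited table of higher circRNAs.

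The arrays held striatal RNA of adult male C57BL6 mice, 3 HuD KO (Elavl4 -/-) and 3 WT littermates, with 1 array per mouse. By this genotype HuD was missing throughout the KO animals rather than from 1 cell type, and the labels name no further allele or treatment in either group. RNase R, which digests linear RNA, was applied before random-primed labelling with Cy3, so the signal comes from 1 colour. The HuD-bound list came from different animals, which expressed myc-tagged HuD under the Camk2a promoter, with several mice pooled for each immunoprecipitation. No probe of the targeted gene Elavl4 was named in the sources used here (0 probes), so loss of HuD was not checked on these arrays. The comparison asks how circles that HuD binds, and a circle that the study used as its negative control for binding, differed in level when HuD was absent.

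HuD is a neuronal member of the Hu (ELAV-like) family, which binds AU-rich and U-rich stretches and is best known for stabilizing mRNAs of growing and plastic neurons. Homer1 encodes a scaffold of the postsynaptic density that ties group I metabotropic glutamate receptors to Shank proteins and to calcium channels of the endoplasmic reticulum. Its short form, Homer1a, is induced by activity and loosens those links, and exons of the gene are also joined back to front into circRNAs. Cdr1as is among the most abundant circRNAs of mammalian neurons and holds many sites for miR-7, while miR-671 pairs with it almost perfectly and directs its cleavage.

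The probe sequences are shown first because each circle is read only through the bases at its back-splice junction, and several of these stretches are alike. Each probe is 60 bases long. In the first 4 lines the capitals mark the longest run shared with mmu_circRNA_010239 or, in the line of that circle itself, the run shared with mmu_circRNA_26702.
mmu_circRNA_26702: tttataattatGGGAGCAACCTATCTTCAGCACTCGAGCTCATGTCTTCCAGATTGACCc
mmu_circRNA_010239: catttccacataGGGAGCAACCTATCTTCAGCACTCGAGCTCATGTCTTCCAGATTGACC
mmu_circRNA_19101: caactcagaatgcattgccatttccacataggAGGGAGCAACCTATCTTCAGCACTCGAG
mmu_circRNA_26704: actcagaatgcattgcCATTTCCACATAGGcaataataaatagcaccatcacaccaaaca
mmu_circRNA_26706: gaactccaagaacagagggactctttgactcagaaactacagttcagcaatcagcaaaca
mmu_circRNA_001946: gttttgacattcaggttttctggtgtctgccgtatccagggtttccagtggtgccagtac

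The first 4 probes are chained by shared sequence. mmu_circRNA_26702 and mmu_circRNA_010239 have a run of 48 of 60 bases in common, mmu_circRNA_010239 and mmu_circRNA_19101 one of 28, and mmu_circRNA_19101 and mmu_circRNA_26704 one of 30. mmu_circRNA_26702 and mmu_circRNA_26704 share no run above 5 bases. The probe of mmu_circRNA_26706 has no run above 8 bases in common with any other of the 6 probes, and that of mmu_circRNA_001946 none above 6. Signal of 1 circle can therefore reach neighbouring probes among the first 4, and these 4 were not counted as separate evidence.

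The 4 chained probes also belong to 1 stretch of the gene. In deposited coordinates, whose build is not stated, mmu_circRNA_010239 is an exonic circle on the plus strand of chromosome 13 at 93341755 to 93356079, and mmu_circRNA_26702, classed as intronic, begins at the same base and ends at 93357647. mmu_circRNA_19101, also classed as intronic, lies at 93341753 to 93356080, and the exonic mmu_circRNA_26704 at 93346568 to 93356079. mmu_circRNA_26706 is exonic and lies at 93387523 to 93393108, 29.9 kb downstream of the last end of the other 4. mmu_circRNA_001946 lies on the plus strand of chromosome X at 61183247 to 61186174.

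**Figure D1:**
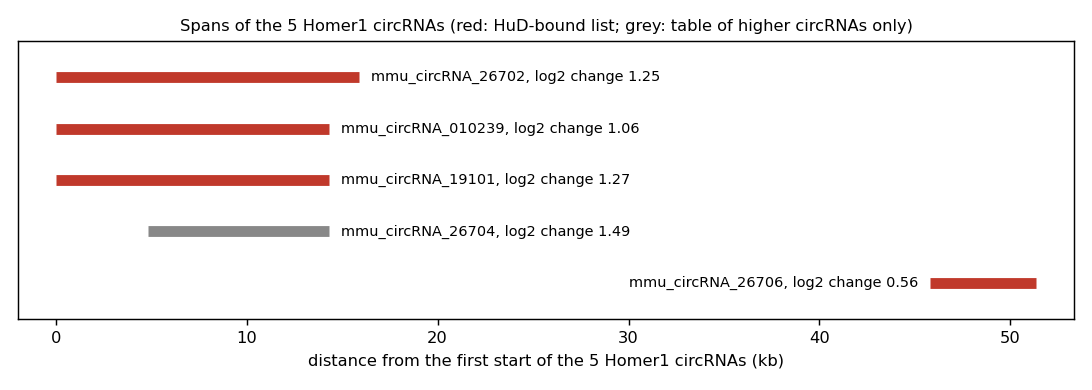
Spans of the 5 Homer1 circRNAs against the distance in kb from the first of their starts, with red bars for circles on the HuD-bound list, a grey bar for mmu_circRNA_26704, and the log2 change (HuD KO minus WT) beside each. The 4 upstream circles overlap and carry changes from 1.06 to 1.49, while mmu_circRNA_26706, 29.9 kb downstream, carries 0.56 (-0.23 when control probes set the scale).

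With arrays scaled to their 75th percentile, all 5 Homer1 circRNAs were higher in HuD KO and the circle antisense to Cdr1 was lower, while scaling on control probes turned the sign of mmu_circRNA_26706 and left no Homer1 circle with a test called. The 4 upstream Homer1 circles were 2.09 to 2.80 times as high in HuD KO as in WT, mmu_circRNA_26706 was 1.47 times as high, and mmu_circRNA_001946 was 2.54-fold lower. When control probes set the scale, the log2 changes of mmu_circRNA_26702, mmu_circRNA_010239 and mmu_circRNA_19101 were 0.47, 0.27 and 0.48 (limma adjusted p 0.106, 0.362 and 0.134), and that of mmu_circRNA_26704 was 0.70 in place of 1.49. Each of the 6 probes was well above background on 6 arrays, and none was saturated or an outlier spot. Levels below are log2 intensities from which the 75th percentile over circRNA probes was taken off, so that 0 is the brightness of a fairly bright circRNA probe. Different probes bind with different strength, and no level of 1 probe is set against that of another.

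For mmu_circRNA_26702 the corrected intensities were 2498, 2861 and 2619 on HuD KO arrays 1 to 3 and 994.8, 870.5 and 542.1 on WT arrays 1 to 3. Its scaled levels were 3.80, 3.70 and 3.26 in HuD KO and 2.60, 2.47 and 1.93 in WT. The lowest HuD KO array stood 0.66 above the highest WT array, so the groups did not overlap. Means were 3.59 ± 0.29 and 2.33 ± 0.36 (SD, n = 3), a rise of 1.25 on the log2 scale (SE 0.23, 95% confidence interval 0.73 to 1.78, limma adjusted p 0.00191).

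mmu_circRNA_010239, the exonic circle whose start is shared with mmu_circRNA_26702, gave intensities of 3868, 4399 and 4836 in HuD KO and 1974, 1598 and 980.7 in WT. On the scaled axis these were 4.43, 4.32 and 4.15 against 3.59, 3.34 and 2.79. HuD KO arrays were close together and all above WT, while WT replicate 3 lay well under the other WT arrays. The change was 1.06 with an SE of 0.22 (95% confidence interval 0.55 to 1.57, limma adjusted p 0.00373), from 3.24 ± 0.41 to 4.30 ± 0.14 (SD, n = 3).

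Intensities of mmu_circRNA_19101 were 3306, 3599 and 3053 in HuD KO and 1304, 1069 and 636.8 in WT. Scaled levels of 4.20, 4.03 and 3.49 in HuD KO stood against 2.99, 2.77 and 2.16 in WT, again with replicate 3 lowest in each group and no overlap. With means of 3.91 ± 0.38 and 2.64 ± 0.43 (SD, n = 3), the change was 1.27 with an SE of 0.27 (95% confidence interval 0.65 to 1.88, limma adjusted p 0.00406).

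mmu_circRNA_26704 entered through the table of higher circRNAs, which was drawn up on these same arrays, so its values are a description without a test. Intensities were 1838, 1976 and 1533 in HuD KO and 574.1, 513.4 and 293.0 in WT. Its scaled levels were 3.36, 3.17 and 2.49 in HuD KO and 1.81, 1.71 and 1.04 in WT. The group means of 3.01 ± 0.45 and 1.52 ± 0.42 (SD, n = 3) differed by 1.49, wider than for the other 4 Homer1 circles, but a large difference was what placed it in that table.

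The downstream circle mmu_circRNA_26706 had the smallest change of the 6. Its intensities were 190.1, 241.4 and 332.3 in HuD KO and 152.9, 129.9 and 82.32 in WT, and its scaled levels 0.08, 0.14 and 0.29 against -0.10, -0.28 and -0.79. Only 0.18 separated the lowest HuD KO array from the highest WT array, and the low value of WT replicate 3 made up much of the spread. The means of 0.17 ± 0.11 and -0.39 ± 0.36 (SD, n = 3) gave a change of 0.56 with an SE of 0.20 (95% confidence interval 0.10 to 1.02, limma adjusted p 0.0388). This call was lost when any array other than WT replicate 1 was left out, with limma adjusted p-values up to 0.0831, and without WT replicate 3 the change was 0.36.

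mmu_circRNA_001946, the circle antisense to Cdr1, moved the other way. Its scaled levels were -0.64, -0.42 and -0.37 in HuD KO and 0.85, 1.35 and 0.41 in WT, with 0.78 between the groups. The change from 0.87 ± 0.47 to -0.48 ± 0.15 (SD, n = 3) was -1.35 with an SE of 0.24 (95% confidence interval -1.90 to -0.79, limma adjusted p 0.00180). Before scaling, however, the intensities overlapped, at 115.0, 164.3 and 210.9 in HuD KO and 294.0, 402.0 and 188.8 in WT, because HuD KO replicate 3 lay above WT replicate 3. Without any scaling the change was -0.83 and was not called (limma adjusted p 0.0521). This circle was not on the HuD-bound list, and its host was named only in the deposited table of lower circRNAs, which was selected on these arrays.

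**Figure D2:**
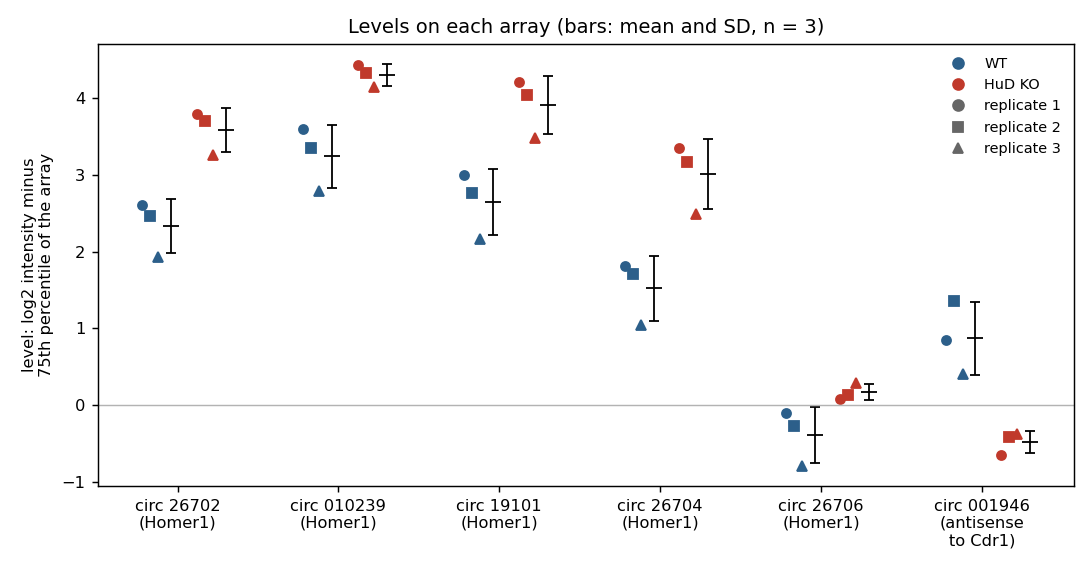
Level of each of the 6 circRNAs on every array, as log2 intensity minus the 75th percentile of the array, in WT (blue) and HuD KO (red), with symbols for replicates and bars for mean and SD (n = 3). HuD KO points lie above all WT points for the 5 Homer1 circles and under them for the circle antisense to Cdr1, with the narrowest gap, 0.18, for mmu_circRNA_26706, whose change was -0.23 when control probes set the scale.

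These calls are to be read against an array on which most probes differed between genotypes. Of 13431 probes tested with limma, 63.3% were called at an adjusted p under 0.05, 26.1% higher and 37.2% lower in HuD KO, and all 4 Homer1 circles on the HuD-bound list were among the higher ones and mmu_circRNA_001946 among the lower ones. Groups did not overlap for 70.2% of probes (29.8% higher, 40.4% lower), as for all 6 members. An exact permutation test over 3 against 3 arrays gave p = 0.1 for each of the members with a test, the smallest it can give. Each genotype was scanned apart from the other, with WT arrays in 1 scan and HuD KO arrays in 2 others, so that scan and genotype cannot be told apart. In whole striatum, fewer cells that make a circle and less of it per cell cannot be told apart either.

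The change of a probe also went with its brightness, and the members were set beside probes of like signal. The 4 upstream Homer1 circles fell in the brightest decile of tested probes, where the median change was 0.48, 51.6% were called higher and 17.8% lower. Of the 1344 probes in that decile, between 80.6% (mmu_circRNA_010239) and 87.0% (mmu_circRNA_19101) had a smaller change than the tested Homer1 circle. For mmu_circRNA_26704 the share was 92.5%, a description only, since a large difference on these arrays had placed it among the members. mmu_circRNA_26706 and mmu_circRNA_001946 fell in decile 8, counted from the dimmest, with a median of 0.19, 36.2% called higher and 24.1% lower. There, 70.3% of 1343 probes had a smaller change than mmu_circRNA_26706, which stood 0.36 above the median of its decile. Only 10.1% had a change below that of mmu_circRNA_001946, whose difference from that median was -1.54. The tested Homer1 circles stood 0.36 to 0.78 above the medians of their deciles, and mmu_circRNA_26704, as a description, 1.0 above.

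**Figure D3:**
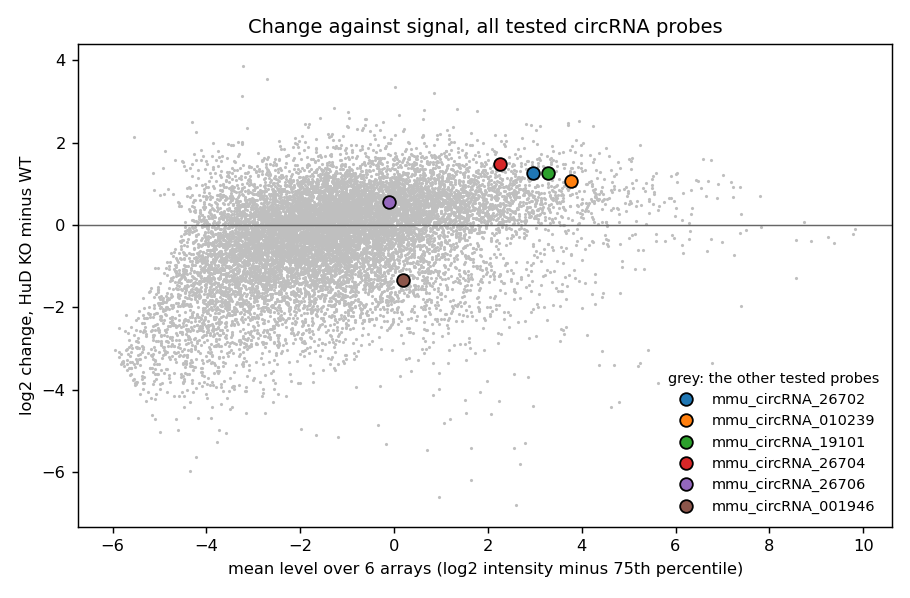
Log2 change (HuD KO minus WT) of every tested circRNA probe against its mean level over 6 arrays, in log2 intensity minus the 75th percentile, with the 6 members in colour. The cloud of grey probes bends down at the dim end, the 4 upstream Homer1 circles sit in its bright upper part, and the circle antisense to Cdr1 sits below the middle of probes of its brightness.

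Scaling arrays by 1 value each moves every probe of an array alike, so the log2 difference between 2 probes on the same array does not depend on it. The difference of mmu_circRNA_010239 from mmu_circRNA_001946 was 5.07, 4.74 and 4.52 on the HuD KO arrays and 2.75, 1.99 and 2.38 on the WT arrays. It was larger by 2.41 in HuD KO with an SE of 0.27, a 5.30-fold shift between both circles that no such scaling can alter. For the other upstream Homer1 circles the shift was 2.60 (mmu_circRNA_26702), 2.61 (mmu_circRNA_19101) and 2.83 (mmu_circRNA_26704, a description).

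Even the weakly changed mmu_circRNA_26706 moved apart from the circle antisense to Cdr1. Their difference was 0.73, 0.56 and 0.66 in HuD KO and -0.94, -1.63 and -1.20 in WT, a shift of 1.90 with an SE of 0.21. In each of the 5 pairs the 3 HuD KO arrays lay above the 3 WT arrays. For the 4 pairs that were tested the exact permutation test gave p = 0.1, the smallest possible. Both outcomes were fixed by the scaled levels, where all Homer1 circles were higher and mmu_circRNA_001946 lower without overlap. They are therefore no further evidence of a difference. The 5 pairs share the values of mmu_circRNA_001946 and are not independent of each other.

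Within Homer1, the downstream circle was compared with the upstream circles on the same arrays. The difference of mmu_circRNA_26706 from mmu_circRNA_010239 was -4.35, -4.19 and -3.86 in HuD KO and -3.69, -3.62 and -3.57 in WT. WT arrays lay within a narrow band (SD 0.06), and all HuD KO arrays lay below it. The mean shift was -0.50 with an SE of 0.15 (exact permutation test, p = 0.1, the smallest p that 3 against 3 arrays allow), a ratio of 0.705. Their probes differ in brightness, and the median change was 0.48 in the decile of mmu_circRNA_010239 and 0.19 in that of mmu_circRNA_26706, whose part in the shift was not tested. Against mmu_circRNA_26702 the shift was -0.70 (SE 0.23) and against mmu_circRNA_19101 -0.71 (SE 0.28), likewise without overlap. After quantile normalization, which is no scaling by 1 value, the shift from mmu_circRNA_010239 was -0.24.

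Among the upstream circles themselves, unequal change was not shown. The shift relative to mmu_circRNA_010239 was 0.21 for mmu_circRNA_19101 (SE 0.14, exact permutation test, p = 0.4) and 0.19 for mmu_circRNA_26702 (SE 0.10, exact permutation test, p = 0.3). In both, HuD KO arrays 1 and 2 lay above the WT arrays and HuD KO array 3 lay among them or under them. For mmu_circRNA_26704 the shift was 0.43, with 2 of 3 HuD KO arrays above WT. HuD KO replicate 3, the array scanned apart from the other HuD KO arrays, thus held the least separated ratios among Homer1 circles, and the part of the scan in this was not tested.

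**Figure D4:**
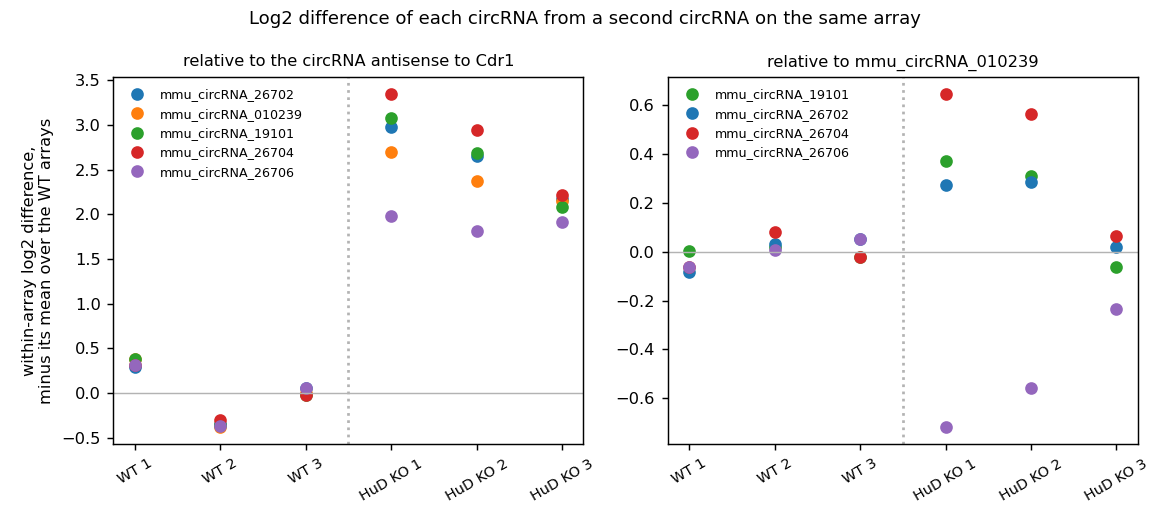
Log2 difference of each Homer1 circRNA from the circle antisense to Cdr1 (left) and from mmu_circRNA_010239 (right) on each of the 6 arrays, with the mean over the WT arrays set to 0. On the left all HuD KO points lie above the WT points, as the separate levels of the circles already require. On the right mmu_circRNA_26706 lies below WT on the HuD KO arrays, and the other circles lie above WT on 2 of 3.

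Direction was also examined under other ways of bringing arrays to 1 scale. The median change of all tested probes was -0.11 with the 75th percentile, 0.12 after quantile normalization and 0.09 when arrays were set to equal medians. It was 0.41 when no scaling was applied, and -0.90 when the array's 14 circRNA control probes set the scale. Calls were 41.3% higher among all calls with the 75th percentile, 54.8% after quantile normalization, 52.2% with median scaling, 67.7% with no scaling and 6.58% with the control probes. Under control-probe scaling 4.47% of tested probes were called higher and 63.4% lower. There the 3 tested upstream Homer1 circles kept changes of 0.27 to 0.48 and were not called, while mmu_circRNA_26706 turned to -0.23 (limma adjusted p 0.466). mmu_circRNA_001946 was lower under every scaling tried, by -2.14 to -0.83.

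Changes were also taken relative to the median of all probes under the same setting, which by construction removes the part that scaling by 1 value adds, and their ranges over the alternatives come from other normalizations, background corrections, filters and weights, arrays left out not included. mmu_circRNA_26702 stood 0.88 to 1.48 above that median, mmu_circRNA_010239 0.68 to 1.34, mmu_circRNA_19101 0.88 to 1.46 and mmu_circRNA_26704 1.13 to 1.65. mmu_circRNA_26706 stood 0.37 to 0.71 above it, also where its own change was below 0. The circle antisense to Cdr1 stood at -1.50 to -0.83 relative to the same median.

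**Figure D5:**
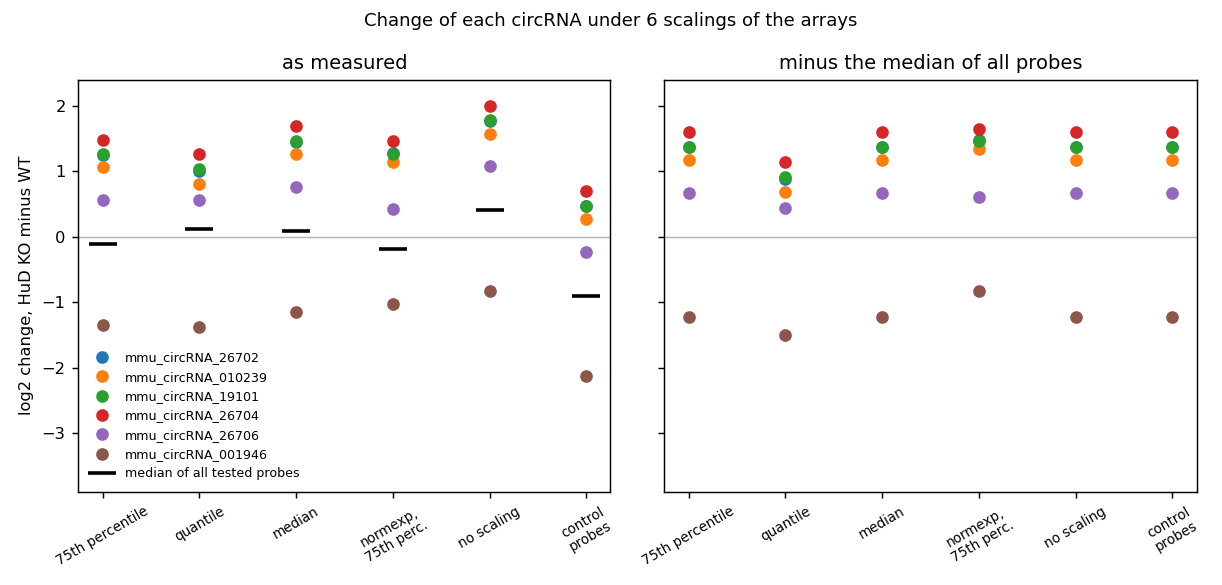
Log2 change (HuD KO minus WT) of the 6 circRNAs under 6 scalings of the arrays, as measured (left, with black bars for the median of all tested probes) and minus that median (right). On the left the 5 Homer1 circles are above 0 except mmu_circRNA_26706 under control-probe scaling (-0.23); on the right all 5 are above 0 and the circle antisense to Cdr1 is below 0 under each scaling.

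For miRNAs, the sequences that bear on the circle antisense to Cdr1 are those of miR-7 and miR-671, as given by RefSeq for build GRCm38.p6. Capitals mark the seed, bases 2 to 8.
mmu-miR-7a-5p: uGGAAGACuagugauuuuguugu
mmu-miR-7b-5p: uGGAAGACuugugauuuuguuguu
mmu-miR-671-5p: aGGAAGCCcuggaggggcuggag

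In that build mmu-miR-7a-5p comes from Mir7-1 (minus strand, chr13:58392841-58392863) and Mir7-2 (plus strand, chr7:78888295-78888317), mmu-miR-7b-5p from Mir7b (plus strand, chr17:56243017-56243040) and mmu-miR-671-5p from Mir671 (plus strand, chr5:24592132-24592154). miR-7a-5p and miR-7b-5p share their seed, and miR-671-5p has a different one. The deposited annotation of mmu_circRNA_001946 lists mmu-miR-7b-5p and mmu-miR-7a-5p as its first predicted partners, and that of mmu_circRNA_26704 lists neither. The letters that pair with the miR-7 seed, GTCTTCC, were searched on both strands of the junction probes. They were found in mmu_circRNA_26702 from base 44 and in mmu_circRNA_010239 from base 45, within the run these probes share, and in 0.720% of 3056 probes with a named host on the printed strand (1.57% on either strand). They were not in the 60 bases at the junction of mmu_circRNA_001946, which are only a small piece of that circle. GGCTTCC, which pairs with the miR-671 seed, was in none of the 6 probes and in 0.491% of all (1.15% on either strand).

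AU-rich letters of the kind bound by Hu proteins were searched in the same windows. ATTTA occurred only on the opposite strand of the probe of mmu_circRNA_26704 and was on the printed strand of 4.16% of probes (7.49% on either strand). TTTNTTT was in none of the 6 and in 1.24% of all (5.20% on either strand). A junction window is short and holds little of a circle, and these searches say nothing of binding.

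Homer1 was 1 of 6 host genes with at least 4 circRNAs on the HuD-bound list, beside Camta1, Mboat2, Anks1b, Ube2e2 and Tulp4. In 3 of the 6, namely Homer1, Mboat2 and Anks1b, every listed circle was called higher, and none of the 6 hosts had a listed circle called lower. For Homer1, 3 of the 4 calls came from probes chained by shared sequence and are not separate evidence. The other, that of mmu_circRNA_26706, was kept under only 12 of 21 alternatives. The gap between the largest and the smallest change within a host was 0.71 for Homer1, between 0.24 for Camta1 and 2.03 for Tulp4. Over the whole HuD-bound list, 279 of 657 tested probes (42.5%) were called higher and 92 lower, with a median change of 0.37 against -0.11 over all tested probes. Calls went with brightness, with 51.6% called higher in the brightest decile of tested probes and 5.58% in the dimmest. The list was not set beside probes of like brightness, and no effect of binding is read from its median.

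Postsynaptic host genes gave a mixed picture. A list of 41 such host genes, Homer1 included (scaffolds, glutamate receptors, calcium channels and kinases) had 17 further circRNAs on the HuD-bound list, from 10 hosts, of which 9 were called higher and 2 lower, with a median change of 0.67. That count lies near the 42.5% called higher over the whole HuD-bound list and the 51.6% in the brightest decile, and nothing particular to these hosts is read from it. mmu_circRNA_31794 of Camk2a, the kinase abundant at excitatory synapses, rose by 1.79 (SE 0.18, limma adjusted p 0.000139), and mmu_circRNA_29512 of Dlg1, a membrane-associated scaffold, by 1.34 (limma adjusted p 0.000416). The other HuD-bound circle of Camk2a, mmu_circRNA_31795, changed by 0.67 and was not called (limma adjusted p 0.124). Both circles of Dlgap3, which links Dlg proteins to Shank, rose by 0.96 and 0.90 (limma adjusted p 0.0466 and 0.0423). The 2 lower circles were mmu_circRNA_36123 of Camk2d (-0.55) and mmu_circRNA_011419 of Dlgap1 (-0.52), singled out after their values were seen. A further 16 circles of the same hosts stood only in the tables of changed circRNAs, selected on these arrays, with 9 higher and 7 lower.

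Circles of other hosts that are well known for brain circRNAs were counted in the same way. Of 16 such hosts, 6 had 13 circRNAs on the HuD-bound list, and 10 of the 13 were called higher, 3 were not called and 0 were called lower, with a median change of 1.09. The share called higher was 42.5% over the whole HuD-bound list and 51.6% in the brightest decile of probes, and the small list was not tested against either. Large changes among them were 2.42 and 2.0 in Tulp4 (mmu_circRNA_19175 and mmu_circRNA_30196, both classed as intronic, whose spans nearly coincide) and 1.59 in Rims1, an organizer of the presynaptic active zone (mmu_circRNA_19745), with limma adjusted p-values of 5.38e-05 to 0.000142. The exonic Tulp4 circles mmu_circRNA_30201 and mmu_circRNA_30205 changed by 0.60 and 0.39 (limma adjusted p 0.0139 and 0.0700), and the latter was not called. Slc8a1, host of 2 of the circles that were not called and singled out after their values were seen, gave changes of 0.31 and 0.00. Among 25 circles of these hosts named only in the tables of changed circRNAs, 21 were higher and 4 lower.

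Antisense circles were few among HuD-bound circRNAs. Of 5 tested, mmu_circRNA_23603, antisense to Dlg4, was called higher by 0.89 and mmu_circRNA_014778, antisense to Calm3, was called lower by -0.55, while 3 were not called. The tables of changed circRNAs, selected on these arrays, hold 56 antisense circles among 1348 lower, mmu_circRNA_001946 included, and 6 among 1140 higher. The number of antisense circles on the whole array was not available. No share of them that changed can be given, and nothing about antisense circles as a class is read from these counts. Of host genes that mark striatal neurons, Foxp1, Bcl11b and Adcy5 had 5 named circles in all, each well above background on all 6 arrays, with 2 called higher, 2 lower and 1 not called, and changes from -3.69 to 1.29. Of glial marker hosts only Slc1a2 had a named circle, which was called higher by 0.70. The part of these cell types in the members' changes was not tested.

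Circles of other host genes were ranked by how alike their profile over the 6 arrays was to that of a member. Likeness was measured as the Euclidean distance between mean-centred log2 levels over 6 arrays, among 2801 named probes for mmu_circRNA_010239 and 2805 for mmu_circRNA_001946. Nearest to mmu_circRNA_010239 were mmu_circRNA_003949 of Gm15155 (distance 0.12, change 1.07), mmu_circRNA_35508 of Kcnab1, a potassium channel subunit (0.21, change 0.96), and mmu_circRNA_44293 of Nptn, a cell adhesion molecule (0.23, change 1.13). Each was nearer to it than any other Homer1 circle, whose distances were 0.33 for mmu_circRNA_26702, 0.42 for mmu_circRNA_19101, 0.70 for mmu_circRNA_26704 and 0.71 for mmu_circRNA_26706. The order of these 4 distances was also the order of the runs of bases shared with its probe, from 48 bases down to 7. The nearest of 2801 probes were set against only 4 Homer1 circles, so nearer circles of other hosts were close to fixed in advance. Most named probes were named by the tables of changed circRNAs, selected on these arrays. Nothing particular to the nearest hosts is read from their distances. For mmu_circRNA_001946 the nearest were circles of Gm26672 (0.37, change -1.34), Zfp142 (0.40, change -1.41) and Zfp516 (0.44, change -1.43). None of them was on the HuD-bound list. That list held only 92 probes called lower, against 1348 in the table of lower circRNAs, selected on these arrays, so nothing is read from their absence.

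WT replicates differed alike across the Homer1 circles, while HuD KO replicates did not. WT replicate 3 had the lowest level for all 6 members, and WT replicate 1 the highest for all 5 Homer1 circles, whereas WT replicate 2 was highest for mmu_circRNA_001946. In HuD KO, replicate 3 was lowest for the 4 upstream circles and highest for both mmu_circRNA_26706 and mmu_circRNA_001946, with replicate 1 at the other end. On the WT arrays the difference between any 2 Homer1 circles compared here varied with an SD of only 0.02 to 0.07, against 0.15 to 0.48 on the HuD KO arrays. The WT arrays shared 1 scan and the HuD KO arrays came from 2, whose part in this was not tested.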

How the data were processed

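Striatal RNA of 3 HuD KO and 3 WT mice was hybridized to 1-colour circRNA arrays, scanned with Agilent software (Feature Extraction 11.0.1.1). The deposited spot intensity is background-corrected by that software and not normalized between arrays. The authors' tables of higher (1140) and lower (1348) circRNAs hold normalized log2 values whose method is not stated, beside fold changes and p-values; host, class, position, sequence and predicted miRNA partners were used from them, and the log2 values only as an alternative for mmu_circRNA_001946 and mmu_circRNA_26704. Membership of the HuD-bound list (658 circRNAs) and its probe sequences came from the study's supplement.

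Levels are log2 of the deposited intensity minus the 75th percentile of the 14236 circRNA probes. Outlier spots (3 to 95 per array) were left out. Probes well above background on all arrays of a group were kept (13458), and 27 with too few values were dropped. Between 84.0% and 96.7% of probes were well above background per array. Precision is limited by having 3 arrays a group. Groups were taken from the sample titles and compared in R 4.3.3 with limma 3.58.1 (functions lmFit and eBayes; Benjamini-Hochberg over 13431 probes; calls at adjusted p under 0.05). Differences between 2 probes were compared with two-sided exact permutation tests (scipy 1.17.1). The fit was tested on simulated data.

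Members, gene lists and motifs were chosen with earlier results of these data known. Beyond the members, the circRNAs named are the 4 with the largest absolute change per list among HuD-bound circRNAs and the 3 nearest profiles of other hosts. The lower circles of Camk2d and Dlgap1, the uncalled circle of Camk2a, the exonic circles of Tulp4, those of Slc8a1 and the called antisense circles of Dlg4 and Calm3 fall outside this rule. They were chosen after their values were seen. One circRNA that this rule names is not reported here. Alternatives were other scalings and background corrections, filters, blocks, array weights, the methods' t-test and leaving out each array. Normexp (offset 50) used the uncorrected median intensity because no mean intensity was present, and its form with the 75th percentile was added after seeing the data. Deviations from the group means of same-numbered arrays had correlations across probes of -0.01, -0.03 and -0.08, and the numbers were not taken to pair the arrays.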

Additional observations from a re-analysis of the deposited data

How the results depend on the processing

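The changes of mmu_circRNA_26702, mmu_circRNA_010239 and mmu_circRNA_19101 were called under 20 of 21 alternatives each; scaling on the control probes gave 0.47, 0.27 and 0.48 (limma adjusted p 0.106, 0.362 and 0.134). mmu_circRNA_001946 was called under 20 of 21 alternatives with a test, the exception being no scaling (-0.83, limma adjusted p 0.0521), and the authors' normalized log2 values, set beside it without a test, gave -1.22. mmu_circRNA_26706 was called under 12 of 21 and reversed to -0.23 with the control probes; it was also not called with scan as a random block (0.57, limma adjusted p 0.127) or by the methods' t-test (0.56, adjusted p 0.0947). mmu_circRNA_26704, described without a test, was 2.0 with no scaling and 0.70 with the control probes. Probes called higher and lower numbered 5339 and 2553 with no scaling and 600 and 8519 with the control probes. With normexp, the within-array shift of mmu_circRNA_26706 was 1.44 from mmu_circRNA_001946 and -0.72 from mmu_circRNA_010239, and after quantile normalization the latter was -0.24.

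The labels link same-numbered arrays of the 2 groups only by that number. With the replicate block 7976 probes were called in place of 8501, and mmu_circRNA_26706 kept 0.56 without being called (limma adjusted p 0.0701).

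Leaving out each array in turn gave 1.05 to 1.42 for mmu_circRNA_26702, 0.83 to 1.24 for mmu_circRNA_010239, 1.03 to 1.48 for mmu_circRNA_19101, 0.36 to 0.70 for mmu_circRNA_26706 (limma adjusted p 0.0283 to 0.0831) and -1.58 to -1.10 for mmu_circRNA_001946. The causes were not tested. Scaling by 1 value shifts all probes of an array alike.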
